A study of Mus musculus with 4 samples.

Results

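The IL-6 family genes examined here are 10 genes of 1 signalling system, measured in cultured rib chondrocytes of Senp6 mutant and control mouse embryos. They comprise 4 secreted ligands (Il6, Lif, Il11 and Clcf1), 4 receptor subunits (Il6st, Il6ra, Lifr and Osmr), the transcription factor gene Stat3 and the feedback inhibitor gene Socs3. The genes were chosen by symbol and not by a cut-off on measured values, although earlier results of these data were known. All 10 were found among the 18298 genes that any of the samples had reads on. RNA came from primary chondrocytes of embryonic (E18.5) rib cartilage, kept to passage P1 on a C57BL/6 background. The mutant group (Mut) consisted of 2 samples of genotype Dermo1-Cre;Senp6f/f and the control group (WT) of 2 samples of genotype Senp6f/f. Every sample thus carries the floxed Senp6 alleles, and only the mutants carry the Dermo1-Cre recombinase, which is expressed from the Twist2 locus in mesenchymal progenitors of bone and cartilage. Control mice with Cre but without the floxed alleles were not analysed here, so the presence of Cre and the deletion of Senp6 cannot be told apart. The comparison asks whether this cytokine family differs between chondrocytes of the Senp6 mutant, which targets the desumoylase SENP6, and the control.

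Cytokines of this family act by bringing together receptor chains that contain gp130, the product of Il6st. IL-6, IL-11 and CLCF1 first bind their own alpha chains (IL6RA, IL11RA and CNTFR). LIF, and CLCF1 once bound to CNTFR, signal through gp130 paired with LIFR, and oncostatin M can signal through gp130 paired with OSMR. The assembled receptor activates JAK kinases, which phosphorylate STAT3, and STAT3 in turn induces Socs3, which encodes an inhibitor of gp130 signalling. IL-6 is also a well-known secreted factor of senescent cells and acts on cartilage in joint disease.

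In units of 1000000 reads on genes, depth ran from 21.02 to 30.99 over the 4 samples, and the controls were the shallower pair. Values are given as RPKM, in which the read count is scaled by the length of the gene and by the reads counted on all genes of the sample, so levels can be set side by side between genes. Counts were compared with the quasi-likelihood test of edgeR for the 14123 genes that reached 10 counts in no fewer than 2 samples. All 10 members passed this filter. No gene passed an adjusted p of 0.05 in that test, which is 0% of those tested in either direction, although 1312 genes (9.29%) were higher and 887 (6.28%) lower in the mutant at an unadjusted p under 0.05. DESeq2 on the same counts called 434 genes higher and 263 lower. Senp6 itself had an RPKM of 10.8 and 18.0 in the controls and of 12.0 and 8.07 in the mutants (log2 fold change -0.56, standard error 0.28, edgeR adjusted p = 0.410), so the gene-level reads, which include exons outside the deleted part, did not separate the genotypes. Mutant replicate 2 had 11354 reads on Xist and the other samples 2 to 5, so the mutant pair differed in the presence of female cells. The labels do not say whether a sample came from a single embryo or from a pool. All 11 chondrocyte marker genes were read in every sample, with Col2a1 between 334 and 659 RPKM. The summed RPKM of 6 fibroblast markers (6207 to 12215) was well above that of the chondrocyte markers (508 to 996). Most of the fibroblast sum came from Col1a1 (3311 to 7253 RPKM) and Col1a2 (1445 to 3062 RPKM), so it does not measure a share of fibroblasts. All 11 chondrocyte markers were lower in both mutants than in both controls, with a median log2 fold change of -1.50, where 22.8% of all tested genes were lower in this way. In bulk samples such as these, fewer cells of a type and less RNA per cell cannot be told apart.

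The ligand genes were the part of the family that differed most between the genotypes. Il6, Lif, Il11 and Clcf1 were each higher in both mutant samples than in both control samples, by about 1.58-fold to 6.52-fold in mean RPKM. Over all tested genes, 25.4% were higher in both mutants in this way. Each of the 4 ligands was highest in mutant replicate 2, the only sample with many reads on Xist. The part of embryo sex in these values was not tested. The median log2 fold change of the 4 ligands was 1.90, against 0.01 over all tested genes. None of the 4 passed an adjusted p of 0.05 in edgeR, while all 4 had an unadjusted p under 0.05 in the higher direction. DESeq2 called Il6, Lif and Il11 higher, a call it made for 3.07% of the genes, and edgeR without the filter called Il6 and Lif, as it did 1.23% of 18298 genes (0.333% in the lower direction).

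Il6 encodes interleukin-6, the cytokine for which the family is named. Its RPKM was 0.306 in control replicate 1, 0.598 in control replicate 2, 1.96 in mutant replicate 1 and 3.94 in mutant replicate 2, and values are given in this order throughout. The gene was thus read at a very low level in the controls and at a higher one in both mutants, and the lower mutant lay 3.27-fold above the higher control. These values rest on 7, 17, 66 and 121 reads, and the exact 95% Poisson interval, which covers counting error only, was 0.123 to 0.631 RPKM for control replicate 1 and 1.52 to 2.49 RPKM for mutant replicate 1. The mean was 0.452 ± 0.206 RPKM (SD, n = 2) in the controls and 2.95 ± 1.40 RPKM (SD, n = 2) in the mutants. On the log2 scale Il6 differed by 2.62 (standard error 0.51, edgeR adjusted p = 0.0965), above that of 99.3% of all tested genes. DESeq2 gave an adjusted p of 0.00369 for the same difference. The replicates of each genotype differed from each other by a factor of 1.95 in the controls and 2.01 in the mutants, so the spread within a genotype was wide but smaller than the step between genotypes.

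Lif encodes leukaemia inhibitory factor, which signals through the LIFR and gp130 pair. It was read at 0.356 and 0.629 RPKM in the controls and at 1.76 and 2.64 RPKM in the mutants, from 30, 66, 219 and 299 reads. Both mutants were well apart from both controls, with the lower mutant 2.80-fold above the higher control. The edgeR estimate of the log2 fold change was 2.10 (standard error 0.35, edgeR adjusted p = 0.0852, DESeq2 adjusted p = 4.7e-05), and Lif had the smallest p of the 10 members, at position 108 among the 14123 tested genes. Reads covered 47.9% and 73.4% of the length of Lif in the controls and 89.1% and 94.5% in the mutants. The additional mutant reads of Lif were thus spread along its transcript. The same was less clear for the other 2 low ligands. Il6 was covered to 46.7% and 69.6% in the controls and to 72.7% and 73.9% in the mutants. Il11 was covered to 52.0% and 74.1% in the controls and to 92.2% and 81.0% in the mutants.

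Il11 encodes interleukin-11, a ligand of gp130 with its own alpha chain. Control values were nearly equal at 0.586 and 0.628 RPKM, whereas the mutants had 1.51 and 2.56 RPKM. Here the spread lay within the mutant pair, and the lower mutant was still 2.40-fold above the higher control. The estimate for Il11 was 1.69 on the log2 scale (standard error 0.37, edgeR adjusted p = 0.113, DESeq2 adjusted p = 0.0267), from 24 to 141 reads a sample.

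Clcf1 encodes cardiotrophin-like cytokine factor 1, which acts through CNTFR, LIFR and gp130. It was by far the most abundant of the 4 ligand transcripts in the controls, with 6.75 and 9.21 RPKM, and the mutants had 11.4 and 13.8 RPKM. The groups did not overlap, but the gap between the nearest samples was only 1.24-fold, less than the 1.37-fold difference between the controls. For Clcf1 the log2 fold change came to 0.61 (standard error 0.23, edgeR adjusted p = 0.270, DESeq2 adjusted p = 0.346). The make-up of the ligand transcripts differed too. Clcf1 had 22.0 and 15.4 times the RPKM of Il6 in the controls and 5.82 and 3.49 times in the mutants. The summed RPKM of the 4 ligands was 7.996 and 11.1 in the controls and 16.6 and 22.9 in the mutants, and that of Il6, Lif and Il11 alone was 1.25 and 1.86 against 5.23 and 9.14.

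**Figure D1:**
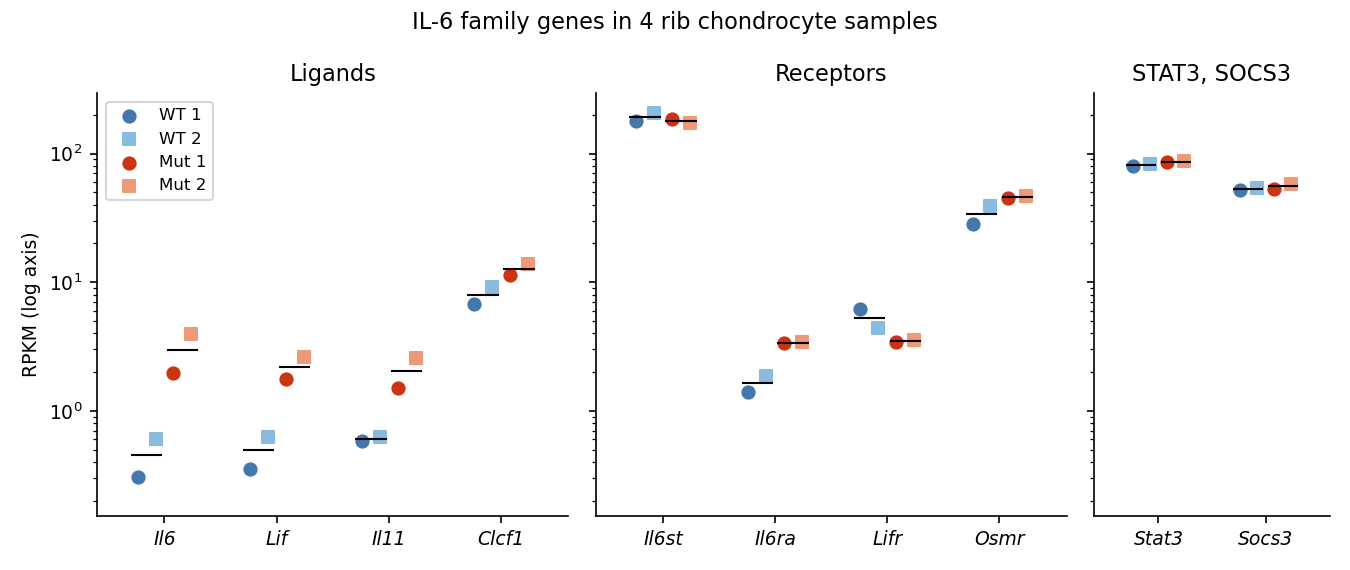
RPKM on a log axis for the 10 genes in control (blue) and mutant (red) samples, circles for replicate 1 and squares for replicate 2, with black lines at the group means. Il6, Lif and Il11 sit below 0.63 RPKM in both controls and above 1.5 RPKM in both mutants, while Stat3 and Socs3 lie almost level in all 4 samples.

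Since Il6, Lif and Il11 were the members with the largest differences, the 250 bases before their annotated starts are shown. The sequences are from RefSeq on GRCm38.p6, written 5′ to 3′ on the strand of the gene, for Il6 at chr5:30012864-30013113 (forward strand), Lif at chr11:4257318-4257567 (forward strand) and Il11 at chr7:4778142-4778391 (reverse strand). Capitals mark matches to an AP-1 motif (TGANTCA), an NF-kB motif (GGG, any pair of bases, then TTTCC), a STAT motif (TTCNNNGAA) or a CRE motif (TGACGTCA), searched on both strands, none of which overlapped another in these windows. Socs3 at chr11:117969367-117969616 (reverse strand) is shown with them as the known STAT3 target of the family.
Il6: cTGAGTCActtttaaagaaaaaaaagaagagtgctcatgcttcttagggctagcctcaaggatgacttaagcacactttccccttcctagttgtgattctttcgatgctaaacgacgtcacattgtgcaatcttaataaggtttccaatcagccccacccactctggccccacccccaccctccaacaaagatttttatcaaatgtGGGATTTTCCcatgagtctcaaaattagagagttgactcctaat
Lif: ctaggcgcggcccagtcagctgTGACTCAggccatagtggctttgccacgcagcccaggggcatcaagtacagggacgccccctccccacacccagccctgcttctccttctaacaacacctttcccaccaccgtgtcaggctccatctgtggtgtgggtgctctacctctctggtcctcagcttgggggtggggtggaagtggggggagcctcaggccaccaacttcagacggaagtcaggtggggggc
Il11: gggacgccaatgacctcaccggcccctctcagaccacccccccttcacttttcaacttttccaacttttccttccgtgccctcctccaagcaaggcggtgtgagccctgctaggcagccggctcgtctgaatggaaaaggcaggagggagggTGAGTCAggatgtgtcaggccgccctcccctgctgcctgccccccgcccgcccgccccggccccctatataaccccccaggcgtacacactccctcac
Socs3: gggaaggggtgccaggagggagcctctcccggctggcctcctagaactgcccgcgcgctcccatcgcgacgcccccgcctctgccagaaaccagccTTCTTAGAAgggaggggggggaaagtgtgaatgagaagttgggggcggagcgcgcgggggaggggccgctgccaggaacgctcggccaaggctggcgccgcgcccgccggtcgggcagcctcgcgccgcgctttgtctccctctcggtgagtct
The windows of Il6, Lif and Il11 each held 1 AP-1 match, TGAGTCA in Il6 and Il11 and TGACTCA in Lif. Counted back from the base next to the start, these lay at bases 249 to 243 in Il6, 228 to 222 in Lif and 98 to 92 in Il11. A match to the AP-1 motif was present in 6.75% of all 32851 windows of this length. Il6 also held the NF-kB match GGGATTTTCC at bases 44 to 35, and that motif was in 1.41% of all windows. The STAT motif was matched among the members only in Socs3, as TTCTTAGAA, against 7.02% of all windows. The exact CRE motif TGACGTCA (1.55% of all windows) was matched in none. Near matches were not searched, and the Il6 window holds cgacgtca, which differs from this motif only in its first base. Windows were found for 9 of the 10 members, 11 in all since Il11 and Lifr have 2 annotated starts each, and the second start of Il11 held no match. The motifs were picked with the values of the genes known, and a match describes the letters of the window, not a bound site.

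The receptor genes did not share 1 direction. Il6ra and Osmr were higher in both mutants than in both controls, Lifr was lower in both, and the common chain gene Il6st was almost level. The median log2 fold change of the 4 receptor genes was 0.13. None passed an adjusted p of 0.05 in edgeR, and DESeq2 called Il6ra higher and none of the others.

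Il6ra encodes the alpha chain that binds IL-6 before gp130 joins, and cells without it respond to IL-6 only through the soluble form. It was read at 1.41 and 1.88 RPKM in the controls and at 3.34 and 3.41 RPKM in the mutants. The mutants were nearly equal and 1.78-fold or more above the controls. Its log2 fold change was 0.996 (standard error 0.22, edgeR adjusted p = 0.114, DESeq2 adjusted p = 0.0224), from 99 to 346 reads a sample, and lay between 0.83 and 1.16 without any 1 of the samples.

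Lifr encodes the receptor chain for LIF and CLCF1, and it was the member with the largest difference in the other direction. Its RPKM was 6.16 and 4.43 in the controls and 3.42 and 3.56 in the mutants, from 971 to 1251 reads a sample. The mutants were below both controls, although the gap to the nearer control was 1.25-fold and the controls themselves were 1.39-fold apart. Between genotypes Lifr differed by -0.65 on the log2 scale (standard error 0.19, edgeR adjusted p = 0.190, DESeq2 adjusted p = 0.0684), below that of all but 5.51% of the tested genes. This value leaned on control replicate 1, since it was -0.36 without that sample and -0.92 without control replicate 2.

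Osmr, which encodes the oncostatin M receptor chain, had 28.5 and 39.3 RPKM in the controls and 45.2 and 46.9 RPKM in the mutants. The 2 groups were apart by 1.15-fold, less than the 1.38-fold difference between the controls. Its log2 fold change was 0.40 (standard error 0.16, edgeR adjusted p = 0.301, DESeq2 adjusted p = 0.294), and 0.21 without control replicate 1. Osm, the gene of its ligand, had no read in 3 samples and an RPKM of 0.020 in control replicate 2, so the receptor was present in cultures with almost no transcript of this ligand.

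Il6st, the gene of gp130, was the most abundant member in every sample, with 179 and 208 RPKM in the controls and 186 and 173 RPKM in the mutants. The groups overlapped in RPKM. The difference in Il6st was -0.15 on the log2 scale (standard error 0.13, edgeR adjusted p = 0.655, DESeq2 adjusted p = 0.799). After the scaling of edgeR, which moved the libraries slightly, Il6st was counted as lower in both mutants by a very small margin, with a scaled CPM (counts relative to library size) of 1013 and 1128 in the controls and 1012 and 919 in the mutants. From the transcripts, gp130 was in wide excess of the alpha chain of the IL-6 receptor, with 127 and 111 times the RPKM of Il6ra in the controls and 55.6 and 50.8 times in the mutants.

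**Figure D2:**
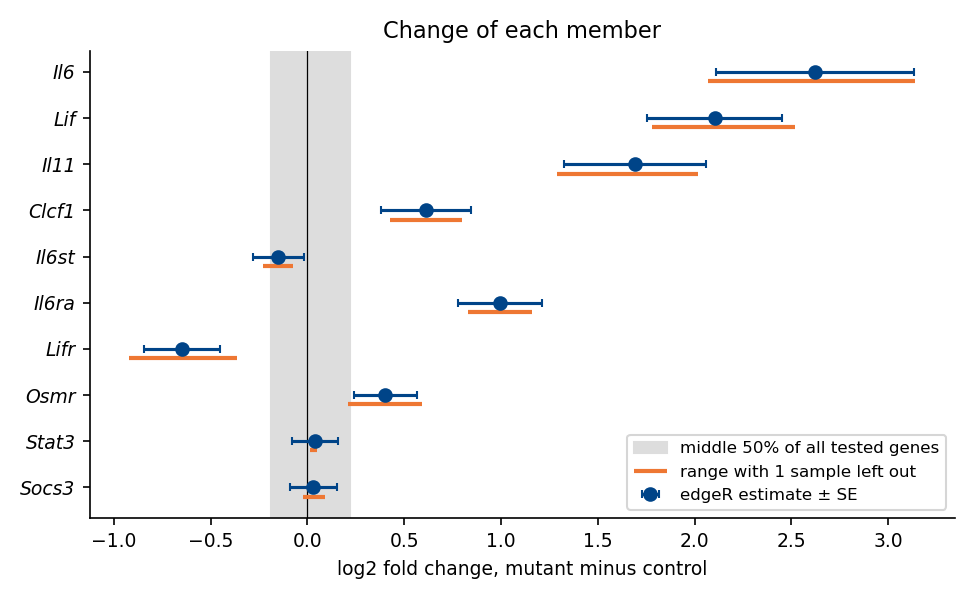
Log2 fold change of each member between mutant and control (blue points, bars of 1 standard error from edgeR), the range of the estimate over the fits that omit 1 sample (orange), and the middle 50% of all 14123 tested genes (grey). The 4 ligands, Il6ra and Osmr lie to the right, Lifr to the left, and Il6st, Stat3 and Socs3 inside the grey band.

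The RPKM of Il6, Lif and Il11 was also set relative to that of a receptor chain of each, within each sample. These ratios follow from the values of the single genes and are not separate support for a difference. Lif had 0.0577 and 0.142 times the RPKM of Lifr in the controls and 0.514 and 0.741 times in the mutants. Il6 had 0.217 and 0.319 times the RPKM of Il6ra in the controls and 0.587 and 1.16 times in the mutants, so that only in mutant replicate 2 did the ligand exceed its alpha chain. For Il11 and Il11ra1, the alpha chain gene of the IL-11 receptor, the ratio was 0.0121 and 0.0176 in the controls and 0.0664 and 0.0954 in the mutants. In these 3 pairs the ratios of the mutants lay above those of the controls. The remaining ligand Clcf1 and its alpha chain gene Cntfr did not separate the genotypes in this way. Clcf1 had 6.75 and 9.21 RPKM against 2.54 and 1.51 RPKM of Cntfr in the controls. In the mutants it had 11.4 and 13.8 RPKM against 3.40 and 2.24 RPKM. Set against Lifr, a chain that CLCF1 shares with LIF, Clcf1 did separate the genotypes. Clcf1 was higher and Lifr lower in both mutants than in both controls, so the outcome depended on the chain chosen. No test was run on these ratios, since with 2 against 2 samples the smallest p of an exact permutation test is 0.333.

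**Figure D3:**
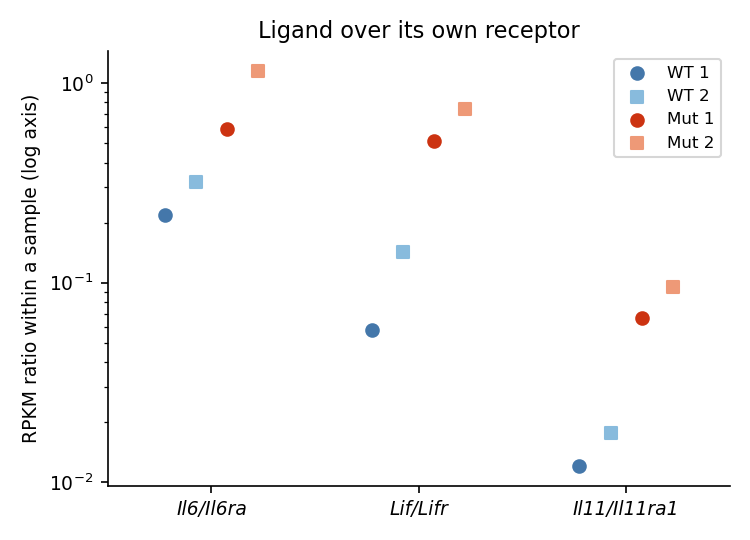
Ratio of the RPKM of a ligand to that of a receptor chain it uses, within each sample, on a log axis, for controls (blue) and mutants (red). In each of the 3 pairs both mutants sit above both controls, from 0.142 in the higher control to 0.514 in the lower mutant for Lif and Lifr.

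Stat3 and Socs3, the genes of the transducer and of its feedback inhibitor, were abundant and nearly level. Stat3 had 80.2 and 83.7 RPKM in the controls and 85.8 and 87.6 RPKM in the mutants. Its log2 fold change was 0.04 (standard error 0.12, edgeR adjusted p = 0.912, DESeq2 adjusted p = 0.985), so the small gap between the groups was less than the error of the estimate. Socs3 had 51.8 and 53.6 RPKM in the controls and 52.6 and 58.4 RPKM in the mutants, and the groups overlapped. Its log2 fold change was 0.03 (standard error 0.12, edgeR adjusted p = 0.930, DESeq2 adjusted p = 0.990), and its sign turned when control replicate 2 or mutant replicate 2 was left out. The ratio of Socs3 to Stat3 was 0.646 and 0.641 in the controls and 0.613 and 0.666 in the mutants. Transcript levels do not show the phosphorylation of STAT3, which was not measured in these samples.

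Across the 10 members, 7 were higher and 2 lower in both mutants than in both controls, and Socs3 overlapped, against 25.4% and 22.8% of all tested genes. At an unadjusted p under 0.05 in edgeR, 6 members were higher and 1 lower, where 9.29% and 6.28% of all tested genes were. In order of RPKM, Il6st, Stat3, Socs3, Osmr and Clcf1 followed each other in every sample. Below them Lifr was above Il6ra in every sample, but by 4.43 against 1.88 RPKM in control replicate 2 and by only 3.42 against 3.34 RPKM in mutant replicate 1. Il6, Lif and Il11 were the lowest 3 members in both controls and in mutant replicate 1, with neighbours that did not differ beyond their spread. In mutant replicate 2, Il6 (3.94 RPKM) stood above Lifr (3.56 RPKM) and Il6ra (3.41 RPKM).

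The genes with the pattern most like Il6 over the 4 samples were Vgf, Nr4a1, Gldn, Tbc1d2 and Rprm. Likeness was the Euclidean distance between profiles of log2(CPM + 1), each centred on its own mean, and it was 0.0621 to 0.118 for these 5. The added 1 understates the step of a gene as low as Il6. The log2 fold change fitted by edgeR was 2.62 for Il6, 1.67 for Vgf, 1.51 for Nr4a1, 2.81 for Gldn, 1.51 for Tbc1d2 and 2.39 for Rprm. Vgf encodes a neuropeptide precursor and had 1.14 and 1.65 RPKM in the controls and 3.29 and 5.92 RPKM in the mutants. Nr4a1, an immediate early nuclear receptor gene, had 5.09 and 6.14 RPKM in the controls and 12.6 and 20.4 RPKM in the mutants. Rprm, the gene of the cell cycle inhibitor Reprimo, was read at 0.326 and 0.681 RPKM in the controls and at 1.79 and 3.78 RPKM in the mutants, close to the levels of Il6 itself.

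The rest of the pathway was examined through a list of 63 other genes, of which 61 had a read and 51 were tested. None passed an adjusted p of 0.05 in edgeR, in which 10 were higher and 3 lower in the mutant at an unadjusted p under 0.05. Of the 51 genes, 18 (35.3%) were higher in both mutants and 10 (19.6%) lower, against the 25.4% and 22.8% of all tested genes given above. DESeq2 called 3 of them higher and 1 lower, where it called 3.07% and 1.86% of all tested genes.

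Among the other ligands of the list only Ctf1 passed the filter on counts. Ctf1, the gene of cardiotrophin-1, had 1.95 and 1.48 RPKM in the controls and 1.97 RPKM in both mutants (log2 fold change 0.16, standard error 0.31, edgeR adjusted p = 0.854), and the groups overlapped in CPM. Ebi3, which encodes a subunit of IL-27, had 0.281 and 0.0645 RPKM in the controls and 0.163 and 0.268 RPKM in the mutants and was too low to be tested. Cntf, Ctf2 and Il27 stayed under 0.44 RPKM, and Il31 had no read. Lep, the gene of leptin, had 20 and 3 reads in the controls and none in either mutant, and was likewise not tested.

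Il11ra1, the alpha chain gene of the IL-11 receptor, was the 1 pathway gene that DESeq2 called lower. It had 48.4 and 35.7 RPKM in the controls and 22.7 and 26.8 RPKM in the mutants (log2 fold change -0.81, standard error 0.19, edgeR adjusted p = 0.126, DESeq2 adjusted p = 0.00785). The groups did not overlap, and the direction was the reverse of that of its ligand Il11. Il11ra2, a near-identical copy, had no read in the files, so reads of the copies could have been assigned to Il11ra1. Cntfr, the alpha chain gene of the CLCF1 receptor, overlapped between the genotypes, with 2.54 and 1.51 RPKM in the controls and 3.40 and 2.24 RPKM in the mutants (log2 fold change 0.44, standard error 0.36, edgeR adjusted p = 0.628). Lepr, which encodes the leptin receptor, a relative of gp130, had 1.33 and 1.74 RPKM in the controls and 2.02 and 4.96 RPKM in the mutants, and its difference of 1.13 on the log2 scale (standard error 0.40, edgeR adjusted p = 0.244) rested largely on mutant replicate 2, without which it was 0.38.

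The JAK kinases and the other STATs differed little. Jak1, the kinase most tied to gp130, had 52.6 to 60.2 RPKM over the 4 samples (log2 fold change 0.05, standard error 0.12, edgeR adjusted p = 0.885). Jak2 had 11.6 to 14.5 RPKM and differed by -0.26 on the log2 scale (standard error 0.14, edgeR adjusted p = 0.455). The 4 kinases had a median log2 fold change of -0.12 and the 5 tested STATs one of -0.10. Stat6 (32.2 to 36.3 RPKM) and Stat2 (16.3 to 25.6 RPKM) were the most abundant of these STATs, with edgeR adjusted p values of 0.739 and 0.735.

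Inhibitors of the pathway were tested in 15 genes, with a median log2 fold change of 0.09. Of these, 7 were higher and 2 lower in both mutants, where 25.4% and 22.8% of all tested genes were. Ptpn11, which encodes the phosphatase SHP2 that docks on gp130, had 26.5 and 32.1 RPKM in the controls and 33.9 and 36.1 RPKM in the mutants (log2 fold change 0.22, standard error 0.13, edgeR adjusted p = 0.508). Pias3, the gene of a SUMO ligase that binds STAT3, had 27.8 and 26.0 RPKM in the controls and 24.9 and 23.4 RPKM in the mutants (log2 fold change -0.20, standard error 0.13, edgeR adjusted p = 0.544). Socs1, another JAK inhibitor gene of the SOCS family, had 15.1 and 9.14 RPKM in the controls and 10.1 and 11.8 RPKM in the mutants.

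Known STAT3 targets were the widest group, with log2 fold changes from -1.96 to 0.72 and a median of 0.12 over 21 genes. Of these, 9 were higher and 4 lower in both mutants, where 25.4% and 22.8% of all tested genes were. The lower ones were thus under that share. DESeq2 called Ccnd1, Timp1 and Bcl2l1 higher, a call it made for 3.07% of all tested genes. Ccnd1, the gene of cyclin D1, had 64.4 and 81.5 RPKM in the controls and 117 and 130 RPKM in the mutants (log2 fold change 0.72, standard error 0.15, edgeR adjusted p = 0.101, DESeq2 adjusted p = 0.00167). Timp1, an inhibitor of metalloproteinases, had 296 and 380 RPKM in the controls and 449 and 685 RPKM in the mutants (log2 fold change 0.70, standard error 0.22, edgeR adjusted p = 0.196, DESeq2 adjusted p = 0.0394). Without mutant replicate 2 the estimate for Timp1 was 0.40. Bcl2l1, which encodes the survival protein BCL-XL and is named after its value was seen, had 19.1 and 21.6 RPKM in the controls and 29.1 and 35.4 RPKM in the mutants (log2 fold change 0.62, standard error 0.14, edgeR adjusted p = 0.123, DESeq2 adjusted p = 0.0242). The 4 that were lower, likewise named after their values were seen, were Hp, Lrg1, Lcn2 and Pim2, of which Hp, Lrg1 and Lcn2 encode acute phase proteins. Hp, the gene of haptoglobin, had 105 and 41.0 RPKM in the controls and 18.9 and 19.8 RPKM in the mutants, and its log2 fold change of -1.96 was -1.10 without control replicate 1. The log2 fold change of Lrg1 was -1.74, and -0.54 without control replicate 1. Lcn2 had 26 and 18 reads in the controls and 6 and 18 reads in the mutants. Its RPKM was 0.807 in control replicate 2 and 0.747 in mutant replicate 2, so these samples were nearly equal. Other acute phase genes of the list overlapped between the genotypes. The listed STAT3 targets are also driven by many other factors, so their levels are not a readout of STAT3 alone.

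**Figure D4:**
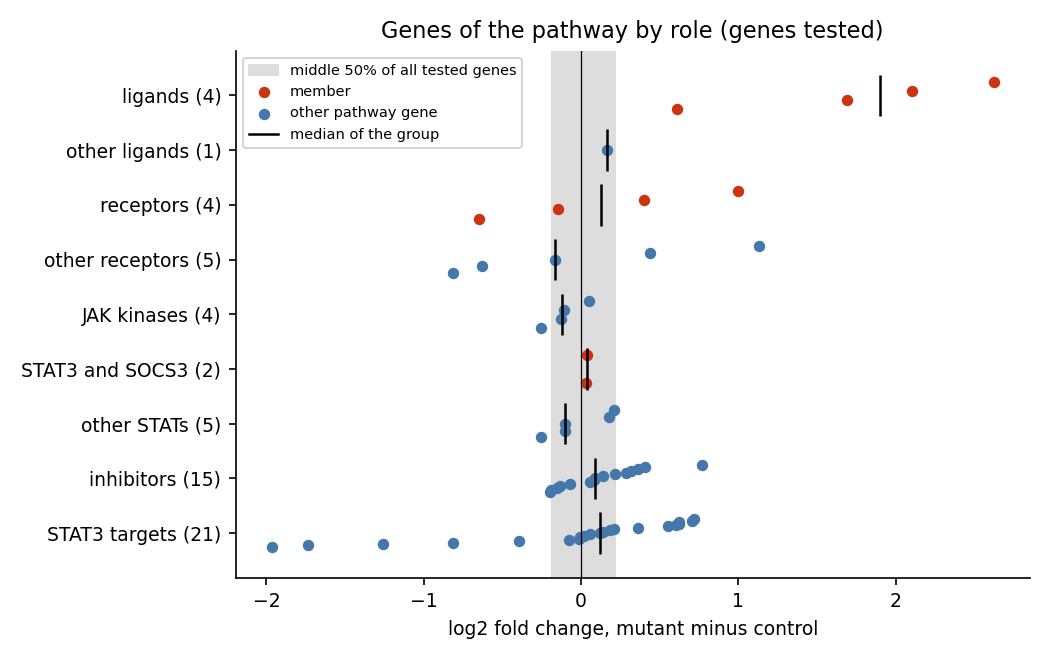
Log2 fold change of every tested gene of the pathway by role, members in red and the other genes in blue, with the median of each group as a black line and the middle 50% of all tested genes in grey. The 4 ligand members stand to the right with a median of 1.90, while the medians of the other groups lie inside the grey band.

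Other gene lists are given beside the ligands, each to be read against the 25.4% of all tested genes that were higher and the 22.8% that were lower in both mutants, and the 3.07% and 1.86% that DESeq2 called. Of 20 immediate early response genes, which share inducers with Il6 and Lif, 16 were higher and 1 lower in both mutants, with a median log2 fold change of 0.67 and a summed RPKM of 221 and 235 in the controls and 303 and 371 in the mutants. DESeq2 called 7 of them higher. Of the 15 tested NF-kB targets, 4 were higher in both mutants, near the share of all tested genes, and 1 was lower, under that share. DESeq2 called 2 of them higher and 1 lower. Their median log2 fold change was 0.00, and their summed RPKM overlapped between the genotypes (280 and 347 against 302 and 389). Skeletal muscle markers were higher in both mutants for 8 of 10 genes, with a summed RPKM of 96.8 and 32.5 in the controls and 160 and 180 in the mutants. Macrophage markers, from a cell type that can secrete IL-6, were lower in both mutants for 7 of 8 tested genes, with a summed RPKM of 23.8 and 20.8 in the controls and 10.03 and 14.01 in the mutants. Of this list, Ptprc, a gene of leukocytes in general, and Fcgr1 were under 0.06 RPKM in every sample, whereas Lyz2 (2.53 to 11.1 RPKM), Cd68 (3.30 to 5.31 RPKM) and Csf1r (0.649 to 1.21 RPKM) were read in all samples. Fibroblast markers were lower in both mutants for 4 of 6 genes and higher for 1, Thy1, which had 219 and 341 RPKM in the controls and 609 and 832 RPKM in the mutants and was the 1 fibroblast marker that DESeq2 called (adjusted p = 2.8e-06). Osteoblast markers were lower for 3 of 4 tested genes and higher for 1, Spp1 (310 and 468 RPKM in the controls, 479 and 600 RPKM in the mutants), which made up most of their summed RPKM, and that sum overlapped between the genotypes. The summed RPKM was 1.57 at most for endothelial and 0.391 at most for red blood cell markers. The controls also differed in these lists, most of all in the muscle markers. The part of the early response, muscle, macrophage and chondrocyte differences in the ligand values was not tested.

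**Figure D5:**
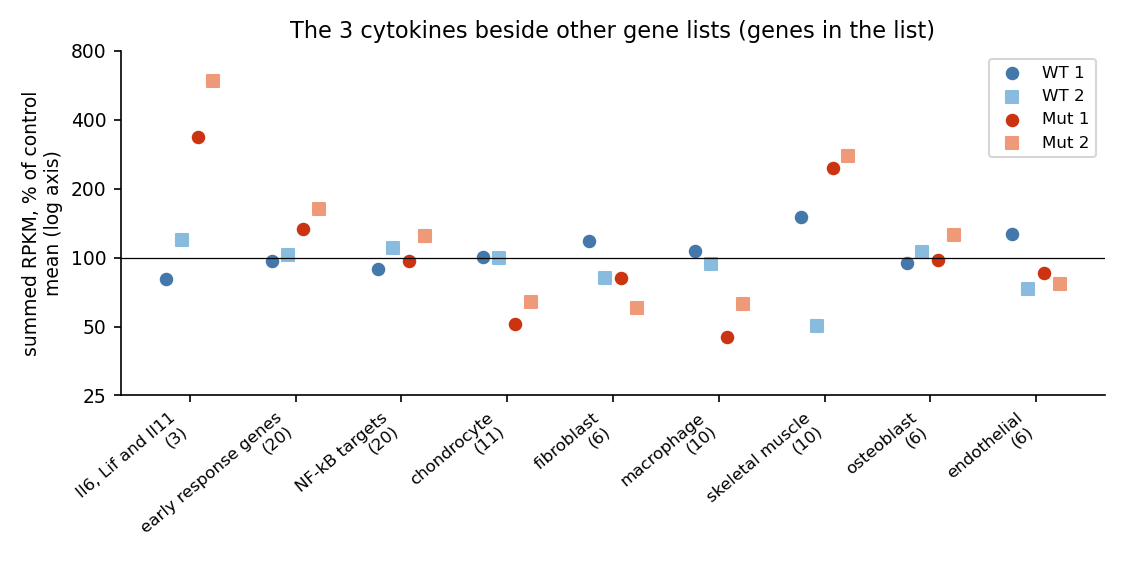
Summed RPKM of Il6, Lif and Il11 and of 8 other gene lists in each sample, as a percent of the mean of the 2 controls on a log axis. The cytokines reach 337% and 589% in the mutants, the early response genes 133% and 163%, and the chondrocyte markers 51.1% and 63.9%.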

How the data were processed

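The authors deposited 1 table per sample, made by a sequencing service from oligo(dT)-enriched RNA. Each holds the read count of a gene without normalization, the RPKM that the authors derived from it with the gene length and the reads counted on genes, and how much of the gene's length had reads, as a percent that the authors computed. RPKM was recomputed from count, length and total for 100% of the values. The submitters' processing notes name the mm9 build and SAMtools, while the aligner, the counting tool and the annotation are not given in the sources used here. The preparation as described does not mark strand, so reads of overlapping genes cannot be told apart. A gene missing from a sample's table was given a count of 0.

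Samples were grouped by the genotype in their labels. The labels do not say that the replicates came from separate embryos, so p-values measure the spread between these samples. The replicates of each group differed far beyond sampling noise (chi-square per degree of freedom 48.6 for WT, 23.7 for Mut). Counts were tested with edgeR 4.0.16 in R 4.3.3 (TMM factors 0.966 to 1.03, robust quasi-likelihood F test, at least 10 counts in at least 2 samples, Benjamini-Hochberg adjustment over 14123 genes). The standard error of a log2 fold change is its size divided by the square root of F. The alternatives were DESeq2 1.42.0, RLE size factors, other filters, limma 3.58.1 on log2 RPKM with a pseudocount of 1 or 0.1, a block for replicate number, and omission of each sample. The scripts were tested on simulated data. In the shallowest sample 10 counts equal 0.238 RPKM for a gene 2 kb long.

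The members, the pathway and marker lists and the motifs were chosen with earlier results of these data known. Named genes are the 10 members, from each pathway group the genes with an edgeR adjusted p under 0.1 and the 2 with the highest mean RPKM, and the 5 genes closest to Il6, while any other gene was picked after its values were seen. Promoter windows came from RefSeq on GRCm38.p6, matched by symbol, and no coordinate was taken from the deposited tables. A gene of the pathway list is not reported here.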

Additional observations from a re-analysis of the deposited data

How the results depend on the processing

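Whether any gene passed an adjusted p of 0.05 depended on the processing. It was 0 in each direction with edgeR, with RLE size factors, with at least 10 counts in every sample and with limma at either pseudocount. DESeq2 called 434 genes higher and 263 lower, and edgeR without a filter 225 and 61. With 1 sample left out, edgeR called 68 to 1296 genes higher and 37 to 1444 lower, most without WT replicate 2, where the lone control is assumed to vary like the mutants. Among the members, edgeR without a filter called Il6 and Lif, and leaving out 1 sample called from 1 (Lif, without Mut replicate 2) to 7 (without WT replicate 2). Of 109 alternative values for the 10 members, 87 kept direction and call, 20 kept direction and passed the threshold, and 2 changed sign, both for Socs3 (-0.0014 without WT replicate 2 and -0.0206 without Mut replicate 2, in a range up to 0.0914). Il6 could not be fitted with at least 10 counts in every sample.

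The replicate numbers were not taken as pairs, since they are not stated to mark a shared litter. Across 14123 genes the step from replicate 1 to replicate 2 correlated at -0.0654 between the genotypes. This value cannot show whether the samples were paired. A block for replicate number gave 84 calls higher and 33 lower in edgeR, with an adjusted p of 0.0432 for Lif, 0.0530 for Il6, 0.0369 for Ptgs2, 0.0426 for Cxcl5 and 0.0365 for Thy1.

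The median log2 fold change of the ligands was 0.99 with limma on log2(RPKM + 1), which by construction understates low genes, and 1.55 to 2.19 with 1 sample left out. That of the receptors ran from -0.00935 to 0.25 with 1 sample left out, and that of Stat3 and Socs3 was 0.0757 with limma at a pseudocount of 1, 0.0767 at 0.1 and 0.00543 to 0.066 with 1 sample left out. Of the 11 other tested pathway genes named by rule, 3 changed sign with 1 sample left out. Ctf1 ran from -0.0804 (without WT replicate 2) to 0.395, Stat2 from -0.0596 (without WT replicate 2; -0.0299 without Mut replicate 2) to 0.42 and Jak1 from -0.00033 (without WT replicate 1) to 0.0706. Socs1, named outside the rule, ran from -0.564 to 0.24 (without WT replicate 1). The cause of these shifts was not tested. Depth limits Il6, Lif and Il11 in the controls, which rest on 7 to 66 reads a sample.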

Other observations

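Other secreted or inflammatory genes, from the list of NF-kB targets and named after their values were seen, differed in both directions or overlapped. Ptgs2, the gene of cyclooxygenase-2, was higher in both mutants, with 2.59 and 8.43 RPKM in the controls and 20.1 and 31.1 RPKM in the mutants (log2 fold change 2.18, standard error 0.50, edgeR adjusted p = 0.122, DESeq2 adjusted p = 0.0922). Leaving out control replicate 1 gave 1.58 for Ptgs2, and leaving out control replicate 2 gave 3.20. Tnfaip3, which encodes the NF-kB inhibitor A20, had 0.708 and 0.716 RPKM in the controls and 1.42 and 1.96 RPKM in the mutants (log2 fold change 1.201, standard error 0.26, edgeR adjusted p = 0.112, DESeq2 adjusted p = 0.0246). Icam1, a cell adhesion gene, had 13.5 and 8.92 RPKM in the controls and 16.3 and 30.9 RPKM in the mutants (log2 fold change 1.02, standard error 0.33, edgeR adjusted p = 0.216, DESeq2 adjusted p = 0.0356), and the estimate was 0.52 without mutant replicate 2. The chemokine gene Cxcl5 was lower in both mutants, with 26.8 and 35.4 RPKM in the controls and 11.9 and 15.5 RPKM in the mutants (log2 fold change -1.22, standard error 0.19, edgeR adjusted p = 0.0833, DESeq2 adjusted p = 5.8e-06). Csf1, which encodes the macrophage growth factor M-CSF, overlapped between the genotypes at 99.8 and 117 against 110 and 139 RPKM. Cxcl2 and Csf3 were too low to be tested, at 0.294 RPKM or less, with both mutants above both controls. Il1a was read in control replicate 2 alone, at 0.039 RPKM, and Il1b in no sample.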
